A study of Mus musculus with 32 samples.

Results

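The 10 genes Acta2, Tagln, Des, Vim, Pdgfra, Pdgfrb, Pdgfb, Reln, Ngfr and Gfap are used as markers of hepatic stellate cells and of the myofibroblasts that they give rise to. They were taken by symbol from the 34836 gene names that the array design carries, and 13 probes on the array bear them. Of these genes, 9 had a probe that passed the filter on dim signal, among 21073 genes tested. All 3 Gfap probes were too dim and Gfap was not tested. Male C57/BL6 mice, 8 weeks old at the start according to the methods, were fed chow or a diet without methionine and choline (MCD), which causes steatohepatitis. Liver RNA was hybridized to 32 1-colour oligonucleotide arrays, 4 in each of 8 groups: C (chow), MCD, M+Fc-GLP-1 (MCD with the drug) and C+Fc-GLP-1 (chow with the drug), each sampled at the 70% partial hepatectomy (PH) and, in the same 4 arms, 2 weeks after it. PH followed 3 weeks of diet, and Fc-GLP-1, an Fc-fused agonist of the GLP-1 receptor, was given over the last 2 of these weeks. C and MCD mice received saline vehicle, and diet and treatment went on after PH. Livers after PH come from survivors only, and per the paper a smaller share of MCD than of M+Fc-GLP-1 mice survived. Selection by survival cannot be told apart from group or time in contrasts that involve livers after PH. The source labels of all 4 treated groups name Fc-GLP-1, whereas their descriptions name a dual agonist, which the protocol field gives as acting on both GLP1R and GCGR. For C+Fc-GLP-1 mice after PH the source label itself names both, Fc-GLP-1 up to PH and a dual agonist from then on, while that of M+Fc-GLP-1 mice after PH speaks of unchanged treatment. The methods name Fc-GLP-1, at 10 nmol/kg every 2 days. The labels of the 4 treated groups give an agonist dose of 4.4 mg/kg per day. The arrays cannot settle which agent or dose was given. A difference in agent between the treated groups after PH cannot be told apart from diet. Arrays of a group are biological replicates per the labels. According to the paper's supplement, the samples at PH were removed in the surgery from the same groups of mice. The titles of C and MCD samples after PH repeat those at PH with a suffix. Which arrays at PH and after it come from the same mouse is not stated.

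Hepatic stellate cells lie in the space of Disse between hepatocytes and sinusoidal endothelium, where in the quiescent state they store retinoids. On injury they can become contractile, matrix-secreting myofibroblasts. PDGF receptors drive their growth and migration, the intermediate filaments desmin, vimentin and GFAP mark them to different degrees, and α-smooth muscle actin (Acta2) and transgelin (Tagln) belong to the contractile apparatus of the activated state. Reelin and the p75 neurotrophin receptor (Ngfr) are further markers of these cells in liver. None of the genes is read here from sorted cells, so fewer cells of a type and less RNA per cell cannot be told apart.

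Levels are log2 processed signals minus the 75th percentile of the same array, so that 0 is the 75th percentile, and levels of different probes were not set against each other. All 8 groups entered 1 limma fit, with Benjamini-Hochberg adjustment over the 21073 genes and a threshold of 0.05, and adjusted p-values below are from this fit. The share of probes well above background ran from 36.3% to 69.2% per array, and the correlation of any pair of arrays over the tested genes was between 0.904 and 0.985. The arrays lay on 5 slides, read on 2 scanners. Before PH, C and MCD shared a slide, the 2 treated groups shared another, and after PH these groups shared a further slide. The 4 C and the 4 MCD arrays after PH lay on a slide of their own each, read on the other scanner. Thus MCD against C before PH and M+Fc-GLP-1 against C+Fc-GLP-1 at either time are contrasts within a slide. In all other contrasts between groups, slide and group cannot be told apart. Before PH the 75th percentile of signal did not overlap between the diets. It was 209 to 395 in C and 442 to 564 in MCD mice. With Fc-GLP-1 it was 222 to 255 on chow and 268 to 338 on MCD diet. Diet and array intensity therefore cannot be told apart in these contrasts before PH, although they lie within a slide.

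Promoter windows of RefSeq on GRCm38.p6 were at hand for 7 of the 10 genes. The 250 bases before a transcript start are shown for the 4 genes that the results turn on most, Acta2, Vim, Pdgfra and Ngfr, written 5′ to 3′ on the coding strand. In Vim and Ngfr this start is the outer end of the annotated gene. In Acta2 and Pdgfra it lies within the gene's span given below, so that the Pdgfra window lies wholly and the Acta2 window mostly inside the gene, downstream of its outermost start. Capitals mark, in Acta2, CArG boxes (the sites of serum response factor) with at most 1 substitution in the A/T core, in Vim the TATA box TATAAA, and in Ngfr the GC box GGGCGG on either strand. No capitals stand in Pdgfra.
Acta2: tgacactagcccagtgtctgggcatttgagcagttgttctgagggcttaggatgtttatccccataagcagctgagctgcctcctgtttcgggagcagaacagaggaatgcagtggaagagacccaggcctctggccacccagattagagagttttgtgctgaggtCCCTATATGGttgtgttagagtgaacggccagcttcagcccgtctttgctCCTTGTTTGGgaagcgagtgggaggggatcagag
Vim: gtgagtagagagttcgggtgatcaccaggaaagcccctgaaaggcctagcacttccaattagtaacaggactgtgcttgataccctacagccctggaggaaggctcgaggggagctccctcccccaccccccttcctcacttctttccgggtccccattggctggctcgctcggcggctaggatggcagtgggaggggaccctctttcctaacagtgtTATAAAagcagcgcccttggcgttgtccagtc
Pdgfra: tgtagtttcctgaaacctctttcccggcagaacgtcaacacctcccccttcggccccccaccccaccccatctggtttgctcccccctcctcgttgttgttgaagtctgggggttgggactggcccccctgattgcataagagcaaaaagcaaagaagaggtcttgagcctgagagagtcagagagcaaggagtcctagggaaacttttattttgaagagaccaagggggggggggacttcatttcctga
Ngfr: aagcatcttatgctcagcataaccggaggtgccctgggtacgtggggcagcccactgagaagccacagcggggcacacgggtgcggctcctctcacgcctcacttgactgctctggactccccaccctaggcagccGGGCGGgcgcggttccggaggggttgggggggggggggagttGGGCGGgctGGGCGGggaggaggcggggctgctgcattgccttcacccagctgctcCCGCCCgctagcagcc

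The Acta2 window (chr19:34255374-34255623, minus strand) held 2 such CArG boxes, CCCTATATGG beginning 84 bases and CCTTGTTTGG beginning 34 bases before that transcript start. No other window of the 7 held one, and 8.59% of 32851 mouse windows of the same length did. A CArG box without any substitution was in 1.47% of windows and in none of the 7. TATAAA, searched on both strands, was in the Vim window alone (chr2:13574061-13574310, plus strand), beginning 32 bases before the start, and in 12.4% of all windows. GGGCGG, also searched on both strands, was found 4 times in the Ngfr window (chr11:95587699-95587948, minus strand), was present in the Des and Reln windows too, and stood in 32.7% of all windows. The Pdgfra window (chr5:75152001-75152250, plus strand) held none of the 3 motifs. These matches are letters in a window and are not measurements of binding.

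Pdgfra, a receptor whose ligands include the PDGF A and C chains, showed the most significant change among the markers. Its gene lies on chromosome 5 (75151322 to 75198206). Before PH its level was -1.82, -1.16, -1.79 and -1.80 in the 4 C mice and 0.24, -0.08, 0.35 and 0.54 in the 4 MCD mice. In C+Fc-GLP-1 mice it was -1.61, -1.36, -1.77 and -1.47, against 0.31, -0.13, -0.22 and -0.09 in M+Fc-GLP-1 mice. Every mouse on MCD diet was thus above every mouse on chow, with or without Fc-GLP-1. Pdgfra was 3.74-fold higher in MCD than in C mice (log2 difference 1.90, SE 0.26, adjusted p = 5.75e-06) and 2.87-fold higher in M+Fc-GLP-1 than in C+Fc-GLP-1 mice (1.52, SE 0.26, adjusted p = 0.000211). Fc-GLP-1 itself left no difference that passed the test: M+Fc-GLP-1 minus MCD was -0.30 (95% confidence interval -0.83 to 0.23).

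At 2 weeks after PH the Pdgfra level was -0.84, -1.32, -1.88 and -0.62 in C mice and -0.24, 0.09, -0.13 and -0.47 in MCD mice. The lowest, median and highest level in C+Fc-GLP-1 mice were -1.18, -0.95 and -0.25, and the levels in M+Fc-GLP-1 mice were -1.13, -0.58, -0.23 and -0.12. The C and MCD groups did not overlap and the 2 treated groups did. MCD exceeded C 1.97-fold (log2 difference 0.98, SE 0.26, adjusted p = 0.0127), between arrays of different slides. Without C replicate 3, which had the lowest level, this difference was 0.74 with an adjusted p of 0.0779, and it was not called in a fit of the compared groups alone (adjusted p = 0.0730). M+Fc-GLP-1 minus C+Fc-GLP-1 was 0.32 (95% confidence interval -0.21 to 0.85, adjusted p = 0.494). The diet difference under Fc-GLP-1 was smaller after than before PH by 1.20 (SE 0.37), which had an unadjusted p of 0.00276 and an adjusted p of 0.240 in limma, so the change with time did not pass the threshold.

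The other receptor and the ligand moved less. Pdgfrb, a receptor for the PDGF B chain and a pan-stellate and pericyte marker, was called in none of the 15 comparisons. Before PH its lowest, median and highest level were -0.11, 0.18 and 0.80 in C and 0.26, 0.51 and 0.61 in MCD mice. With Fc-GLP-1 they were -0.88, -0.40 and 0.12 on chow and -0.58, -0.13 and 0.58 on MCD diet. All 4 groups overlapped with at least 1 other. The MCD-minus-C difference was 0.21 before PH (95% confidence interval -0.52 to 0.94). In C+Fc-GLP-1 mice Pdgfrb was 2.18-fold higher after than before PH (log2 difference 1.12, SE 0.36), with an unadjusted p of 0.00386 and an adjusted p of 0.121 in limma. Pdgfb, the B-chain ligand made in liver mainly by endothelium, platelets and macrophages, was read from the brighter of its 2 probes. Its group means ran from -0.60 in C after PH to 0.12 in MCD before PH, and no comparison passed the threshold. Within groups it had a correlation of 0.83 with Vim over 32 arrays. With the summed levels of cell type markers it was 0.79 for cholangiocytes, 0.71 for platelets, 0.70 for macrophages and -0.16 for endothelium. With the authors' normalized values Pdgfb was higher in MCD than in C mice before PH by 0.84 (adjusted p = 0.00499), a call not made with the levels used here (0.44, adjusted p = 0.502). The other Pdgfb probe was well above background on 5 of 32 arrays.

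**Figure D1:**
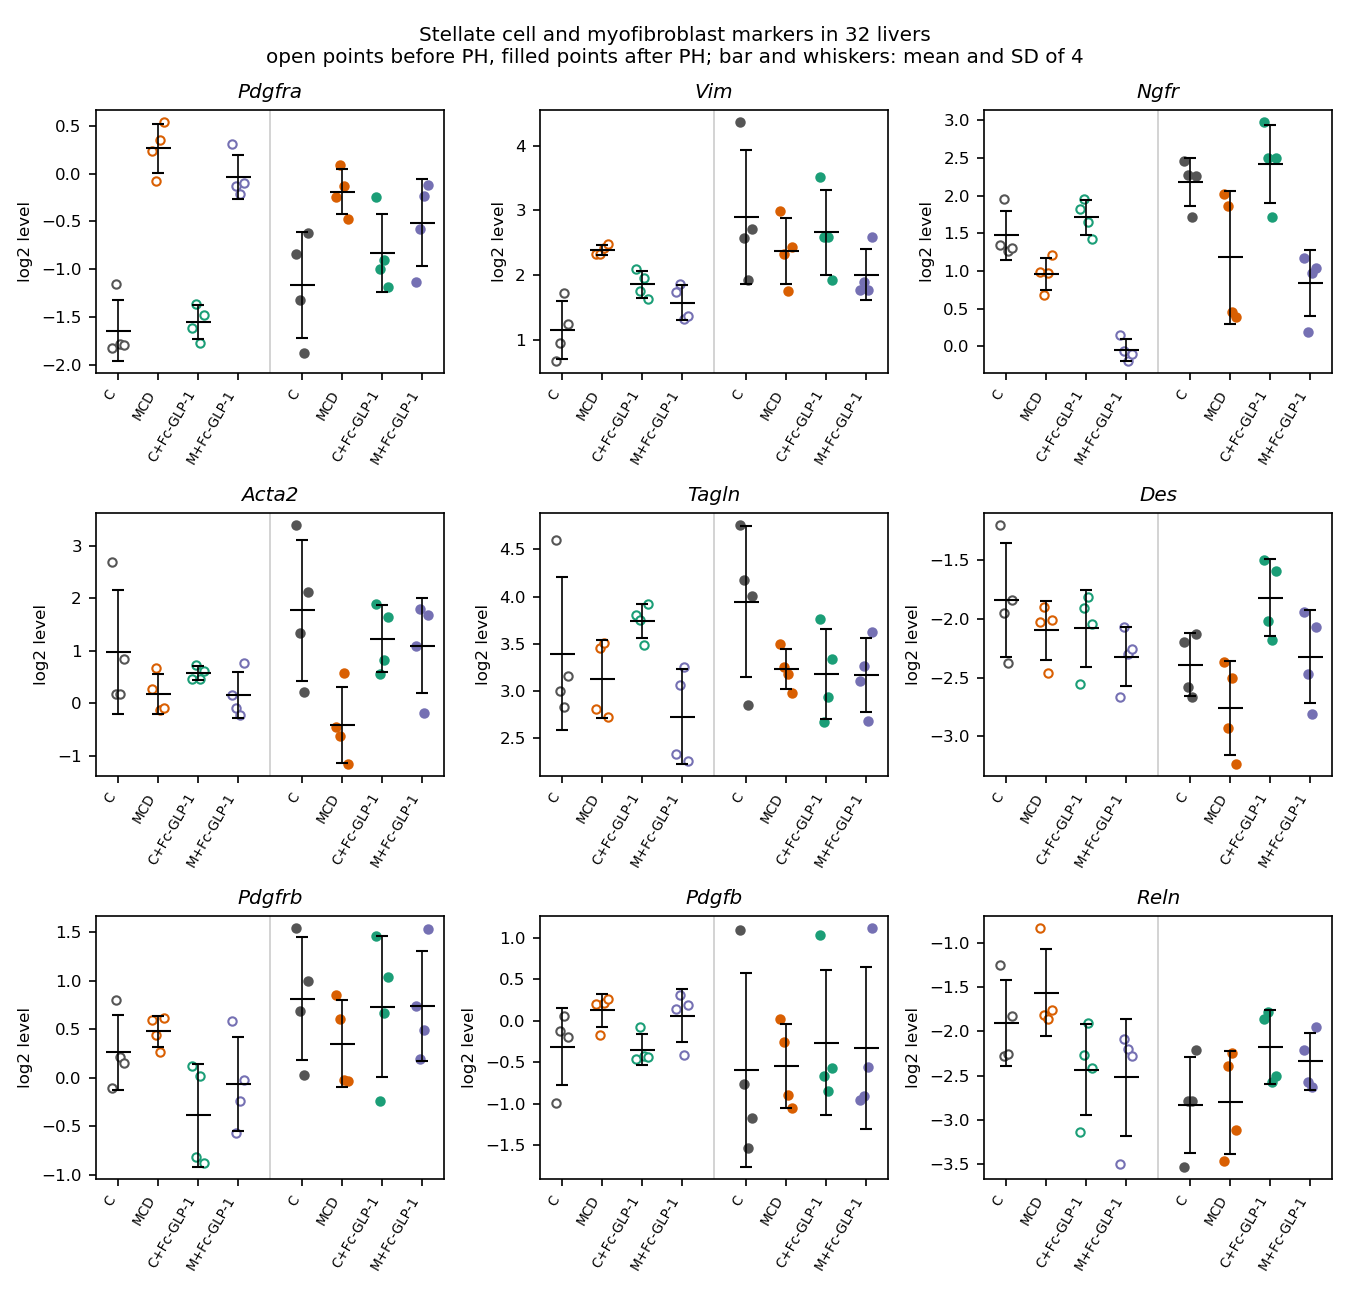
Level of each of the 9 tested markers in the 32 livers (log2 signal minus the array's 75th percentile), with open points before PH, filled points after PH, and the mean and SD of 4 arrays per group. The 8 livers on MCD diet before PH lie above the 8 on chow for Pdgfra, between -0.22 and 0.54 against -1.82 to -1.16, and Ngfr is lowest in M+Fc-GLP-1 mice before PH, between -0.19 and 0.15.

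Among the intermediate filament genes, Vim, which encodes vimentin and is expressed in stellate cells, fibroblasts, endothelium and leukocytes alike, rose with the diet in untreated mice. Its level before PH was 0.66, 0.95, 1.72 and 1.23 in C mice and 2.33, 2.32, 2.42 and 2.48 in MCD mice. It was 2.09, 1.74, 1.95 and 1.62 in C+Fc-GLP-1 mice and 1.74, 1.86, 1.32 and 1.36 in M+Fc-GLP-1 mice. MCD mice lay above all others in this set, and the 2 treated groups overlapped. Vim was 2.37-fold higher in MCD than in C mice (log2 difference 1.24, SE 0.36, adjusted p = 0.0126), a call lost with normexp and quantile normalization (1.03, adjusted p = 0.0668), while M+Fc-GLP-1 minus C+Fc-GLP-1 was -0.28 (95% confidence interval -1.03 to 0.46). The difference between these diet effects, in which an additive slide difference cancels, was -1.52 (SE 0.52), with an unadjusted p of 0.0061 and an adjusted p of 0.0706 in limma. In a fit of these 4 groups alone its adjusted p was 0.0164.

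After PH the Vim level was 4.36, 2.58, 1.92 and 2.72 in C mice, 2.99, 2.32, 1.75 and 2.44 in MCD mice, 3.52, 2.59, 2.59 and 1.92 in C+Fc-GLP-1 mice and 1.76, 1.90, 1.76 and 2.58 in M+Fc-GLP-1 mice. All 4 groups overlapped. In C mice Vim was 3.37-fold higher after than before PH (log2 difference 1.75, SE 0.36, adjusted p = 0.00219), between different slides and scanners. Without C replicate 1 after PH, the highest array, this difference was 1.26. In a fit of these 2 groups alone it was not called (adjusted p = 0.0619). In MCD mice, which were already high at PH, the difference with time was -0.01 (95% confidence interval -0.76 to 0.73). The contrast of these, the change of the MCD effect with time in untreated mice, was -1.76 (SE 0.52) with an adjusted p of 0.0568, a test that was added after seeing the data. A slide difference does not cancel in it, because C and MCD lay on different slides after PH.

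Macrophage markers and markers of several other cell types varied together with Vim. Of 14 macrophage markers, all tested, 10 were higher and 1, Itgam, was lower in MCD than in C mice before PH (against 26.4% of all genes called). In C mice 12 were higher after than before PH (against 14%). Vim was called in these comparisons, but macrophage markers were also called where Vim was not. In M+Fc-GLP-1 against MCD mice 4 were lower before PH (against 7.22%) and 2 after PH (against 6.5%), and none was higher. The summed level of the 14 (log2 of the sum of their linear levels) before PH ranged from 6.09 to 6.85 in C and from 7.18 to 8.54 in MCD mice. In C+Fc-GLP-1 mice it was 6.48 to 7.22, and in M+Fc-GLP-1 mice 5.81 to 7.13. After PH it ranged from 7.16 to 9.44 in C and from 7.90 to 9.05 in MCD mice. It was then 7.70 to 8.64 in C+Fc-GLP-1 and 7.65 to 8.04 in M+Fc-GLP-1 mice. In both treated groups the times did not overlap, though Vim was not called there. Gpnmb, a marker of lipid-associated macrophages, was well above background in no C mouse and in all MCD mice before PH, at least 18.9-fold higher, and Trem2, another such marker, was higher by 4.62 on the log2 scale (SE 0.75, adjusted p = 5.81e-05). Over the 32 arrays Vim and the summed level had a Pearson correlation of 0.76, and of 0.57 after the group means were subtracted, a description of arrays that share slides and groups. Within groups the correlation of Vim was higher with cholangiocyte (0.67), platelet (0.60), other intermediate filament (0.59) and portal fibroblast markers (0.58). The 2 genes with names whose levels were most like those of Vim were Adcy7 (r = 0.90) and Cx3cr1, a receptor of monocytes and macrophages (r = 0.90). Of 10 hepatocyte markers, all tested, 2 were lower and none higher in MCD than in C mice before PH, where 26.4% of all genes were called, and 3 were lower and none higher in C mice after PH, where 14% were. The part of these cell types in the Vim differences was not tested.

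**Figure D2:**
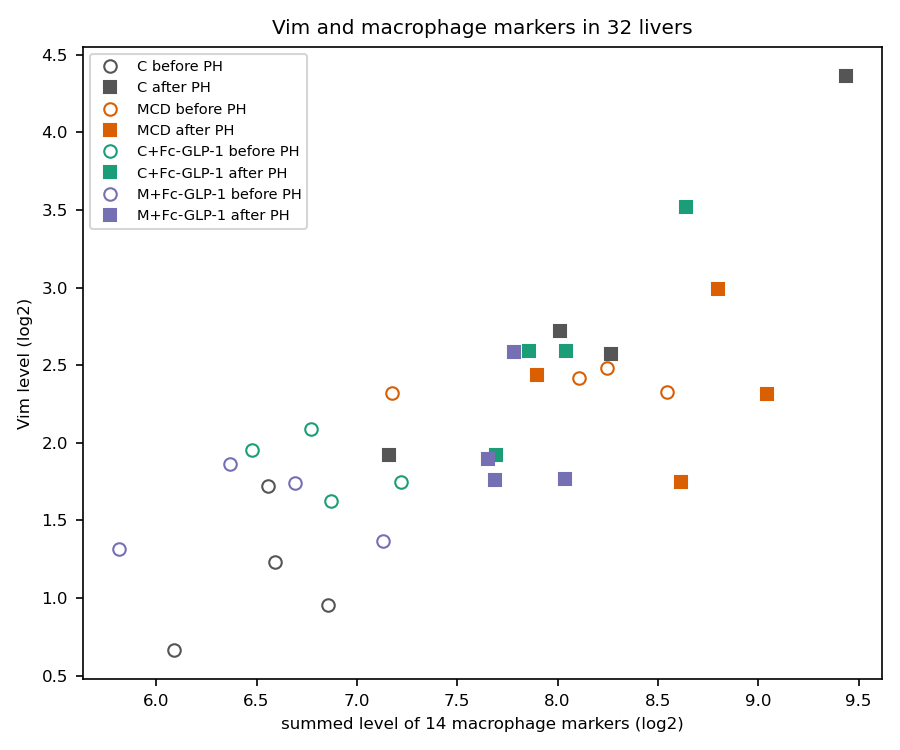
Vim level (log2) against the summed log2 level of 14 macrophage markers in the 32 livers, by group, with circles before PH and squares after PH. Livers with more macrophage signal tend to have more Vim (Pearson r = 0.76 over 32 arrays). C and M+Fc-GLP-1 livers before PH stand at the lower left, with Vim from 0.66 to 1.72 and from 1.32 to 1.86.

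Des, which encodes desmin, the classic stellate cell filament of rodent liver, was called in no comparison. The group means lay between -2.76 in MCD after PH and -1.82 in C+Fc-GLP-1 after PH, a span of 0.94 on the log2 scale. Des was well above background on every array, and its MCD-minus-C difference was -0.26 before PH (95% confidence interval -0.78 to 0.27) and -0.37 after PH (-0.89 to 0.16). In untreated mice it was lower after than before PH (-0.55 on chow and -0.66 on MCD diet), between different slides and scanners. The unadjusted p-values were 0.0408 and 0.0153 and the adjusted p-values 0.148 and 0.105 in limma. Gfap, the astrocyte filament that also marks quiescent stellate cells, was not well above background on any array with 1 probe. The other 2 probes reached that mark on 3 and 5 of 32 arrays, never on more than 1 array of a group.

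Acta2, the usual marker of activation, was lowest in MCD mice after PH. The gene lies on chromosome 19 (34240336 to 34255585). After PH its level was 3.39, 1.35, 0.22 and 2.12 in C mice, -0.44, -0.62, 0.58 and -1.16 in MCD mice, 1.89, 0.56, 0.83 and 1.64 in C+Fc-GLP-1 mice and 1.09, 1.79, -0.18 and 1.68 in M+Fc-GLP-1 mice. MCD and C overlapped through C replicate 3 and MCD replicate 3 only. Acta2 was 4.53-fold lower in MCD than in C mice (log2 difference -2.18, SE 0.54, adjusted p = 0.00774). The 2 groups lay on different slides, and a fit of these groups alone gave an adjusted p of 0.0658. Within the slide of the treated groups, the MCD-minus-chow difference was -0.14 (95% confidence interval -1.24 to 0.97).

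M+Fc-GLP-1 mice were above MCD mice in Acta2 after PH by 1.50 on the log2 scale (SE 0.54), with an adjusted p of 0.0893. Without M+Fc-GLP-1 replicate 3, its lowest array, the difference was 1.93 and the adjusted p was 0.0407. Before PH the level was 2.69, 0.19, 0.18 and 0.84 in C mice and 0.27, 0.68, -0.12 and -0.10 in MCD mice, with C replicate 1 far above the rest. In C+Fc-GLP-1 mice it was 0.47, 0.74, 0.46 and 0.62, and 0.17, -0.09, -0.22 and 0.77 in M+Fc-GLP-1 mice. None of the 4 contrasts before PH, nor any contrast of after with before PH, was called for Acta2. The point estimates of after minus before PH, each with an SE of 0.54, were 0.80 in C and -0.59 in MCD mice. They were 0.66 and 0.94 in the treated mice on chow and on MCD diet. Of 8 cholangiocyte markers 7 were tested, and after PH 1, Epcam, was called higher for M+Fc-GLP-1 against MCD (2.78, adjusted p = 0.00697), where 6.5% of all genes were called. The groups of this contrast lay on different slides and scanners. The summed level of the cholangiocyte markers after PH ran from 1.50 to 2.07 in MCD and from 2.00 to 5.71 in C mice. It ran from 2.73 to 6.15 in C+Fc-GLP-1 and from 2.38 to 5.96 in M+Fc-GLP-1 mice. Its correlation with Acta2 over 32 arrays was 0.68 (0.60 within groups, where that of portal fibroblast markers was 0.62). Their part in the Acta2 differences was not tested.

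Tagln, an actin-binding protein of smooth muscle and myofibroblasts and like Acta2 a target of serum response factor, was called in none of the 15 comparisons. Before PH its level was 3.80, 3.76, 3.49 and 3.92 in C+Fc-GLP-1 mice and 2.34, 3.06, 3.26 and 2.27 in M+Fc-GLP-1 mice, on the same slide and without overlap. The difference of -1.01 (SE 0.36) had an adjusted p of 0.0686. It was called with the authors' normalized values (-0.81, adjusted p = 0.0441), with centring on the median (adjusted p = 0.0329) and with normexp and quantile normalization within 1 time (adjusted p = 0.0397). M+Fc-GLP-1 minus MCD before PH, -0.40 here, was called with the first and last of these (-0.80 and -0.82, adjusted p = 0.0348 and 0.0325). In the remaining contrasts between groups the estimates ran between -0.77 and 0.55. Tagln and Acta2 moved together from mouse to mouse: within groups their Pearson correlation was 0.72, and that of Acta2 with Des 0.68, over 32 arrays. The C array before PH with the highest Acta2 also had the highest Tagln (4.59) and Des (-1.20) of its group. The genes most like Acta2 over the 32 arrays were Ehd2 (r = 0.75), the smooth muscle actin Actg2 (r = 0.74) and Ak1 (r = 0.71). For Tagln they were Cryab (r = 0.66), Slc29a3 and Acta2 (r = 0.65 for each).

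Ngfr, the p75 receptor for neurotrophins, differed between the diets in treated mice at both times. Its gene lies on chromosome 11 (95568818 to 95587698). Before PH its level was 1.82, 1.96, 1.65 and 1.42 in C+Fc-GLP-1 mice and 0.15, -0.06, -0.19 and -0.10 in M+Fc-GLP-1 mice. It was 1.34, 1.96, 1.27 and 1.31 in C mice and 0.98, 0.68, 0.97 and 1.21 in MCD mice. M+Fc-GLP-1 mice thus lay below all other mice of that time. In the treated mice Ngfr was 3.40-fold lower on MCD diet than on chow (log2 difference -1.77, SE 0.31, adjusted p = 0.000308), against -0.51 (SE 0.31, adjusted p = 0.228) for MCD minus C, groups that did not overlap either. The difference of these diet effects was -1.26 (SE 0.44) with an adjusted p of 0.0822, and of 0.0261 in a fit of these 4 groups alone.

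M+Fc-GLP-1 mice were also 2.02-fold below MCD mice before PH in Ngfr (log2 difference -1.01, SE 0.31, adjusted p = 0.0454), across slides. This call was lost when any 1 of the 8 arrays was left out, with adjusted p-values up to 0.107. After PH the level was 2.97, 2.50, 1.72 and 2.50 in C+Fc-GLP-1 mice, 1.17, 0.20, 0.97 and 1.03 in M+Fc-GLP-1 mice, 2.47, 2.27, 1.72 and 2.26 in C mice, and 2.02, 1.86, 0.46 and 0.39 in MCD mice. The treated groups again did not overlap, and the MCD mice fell into a higher and a lower pair. M+Fc-GLP-1 was 2.99-fold below C+Fc-GLP-1 (log2 difference -1.58, SE 0.31, adjusted p = 0.000842). MCD was 2.00-fold below C (95% confidence interval of the log2 difference -1.64 to -0.36, adjusted p = 0.0329), a call lost without C replicate 1, 2 or 4 or MCD replicate 3 or 4. It was also lost with centring on the median, with the authors' normalized values and without the filter on dim probes. The same held for normexp and quantile normalization within 1 time and for a fit of the compared groups alone. Adjusted p-values ran up to 0.163 over all alternatives. The diet effect under Fc-GLP-1 changed with time by 0.19 (SE 0.44).

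Over the 32 arrays the genes most like Ngfr were Lasp1 (r = 0.89), the tight junction gene Tjp3 (r = 0.88) and Scd1, the stearoyl-CoA desaturase of lipid synthesis (r = 0.85). Of 8 glial and Schwann cell markers 4 were tested, and Cnp, an enzyme of myelinating cells, was 4.35-fold lower on MCD diet than on chow among treated mice before PH, and 3.50-fold lower among untreated mice. Mbp, a myelin component, was 2.47-fold higher in that untreated contrast (adjusted p = 0.0372). The summed level of the 4 had a correlation of 0.71 with Ngfr (0.56 within groups, where that of macrophage markers was 0.53). S100b, Cdh19 and Foxd3, which mark Schwann cells, were too dim to be tested. Their part in the Ngfr differences was not tested.

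Reln, which encodes the secreted glycoprotein reelin, a stellate and lymphatic endothelial product in liver, was lower in MCD mice after than before PH. Its level was -0.83, -1.81, -1.85 and -1.75 before and -3.47, -2.39, -2.24 and -3.12 after PH. The groups did not overlap, and the log2 difference was -1.24 (SE 0.35, adjusted p = 0.0239), or 2.37-fold. In C mice it was -0.93 (SE 0.35, adjusted p = 0.0750), where the level went from between -2.28 and -1.25 to between -3.54 and -2.21. In treated mice the differences were 0.25 and 0.18, with adjusted p-values of 0.782 and 0.850. The arrays before and after PH lay on different slides, and those of untreated mice, but not of treated mice, also on different scanners. The MCD call was lost without MCD replicate 1 before PH, or replicate 1 or 4 after PH, with adjusted p-values up to 0.0985. Reln was dim: its probe was well above background on 3 of 4 arrays of C+Fc-GLP-1 and 1 of 4 of M+Fc-GLP-1 mice before PH, and on 3 of 4 of MCD mice after PH.

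Across the 9 tested markers, calls were few in every comparison. Before PH, 2 of 9 were called between MCD and C (Pdgfra and Vim, both higher), where 26.4% of all tested genes were called. Between M+Fc-GLP-1 and C+Fc-GLP-1, 2 of 9 were called (Pdgfra higher, Ngfr lower) against 10.4% of all genes, and between M+Fc-GLP-1 and MCD 1 of 9 (Ngfr) against 7.22%. After PH, 3 of 9 were called between MCD and C (Acta2 and Ngfr lower, Pdgfra higher) against 12.1% of all genes, and 1 of 9 between M+Fc-GLP-1 and C+Fc-GLP-1 (Ngfr) against 12.8%. With time, 1 of 9 was called in C mice (Vim higher, against 14% of all genes) and 1 in MCD mice (Reln lower, against 9.43%). With 9 genes, these counts do not set the markers apart from all genes.

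No marker was called for C+Fc-GLP-1 against C at either time (2.11% of all genes before and 2.06% after PH), for M+Fc-GLP-1 against MCD after PH (6.5%), for either treated group after against before PH (0.835% on chow and 1.71% on MCD diet) or for the interactions (6.15% for diet by Fc-GLP-1 before PH, 0.0949% for diet by time under Fc-GLP-1 and 2.85% without it). At an unadjusted p under 0.05, limma gave 0 and 2 markers for C+Fc-GLP-1 against C before and after PH, 1 for M+Fc-GLP-1 against MCD after PH, with time 4 for C+Fc-GLP-1 mice but 2 for M+Fc-GLP-1 mice, and 2, 1 and 2 for the interactions. Fc-GLP-1 on chow before PH gave 2 calls with the authors' normalized values: -1.30 for Pdgfrb and 0.96 for Vim, against -0.65 and 0.71 with the levels used here. Comparisons that share a group are not independent of each other. The groups did not overlap for 3 of 9 markers in MCD against C before PH (28.4% of all genes), 3 in M+Fc-GLP-1 against MCD (16.4%) and 3 in the contrast of the treated groups (15.5%), and for 0 in C+Fc-GLP-1 against C (9.96%). After PH they did not overlap for 1 marker in MCD against C (17.2%), 1 in the contrast of the treated groups (16.6%), and 0 in C+Fc-GLP-1 against C (10.5%) and in M+Fc-GLP-1 against MCD (14.3%). Between the times it was 1 marker each in C (17.9%) and MCD mice (19.2%), and 1 each in treated mice on chow (8.91%) and on MCD diet (8.95%).

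**Figure D3:**
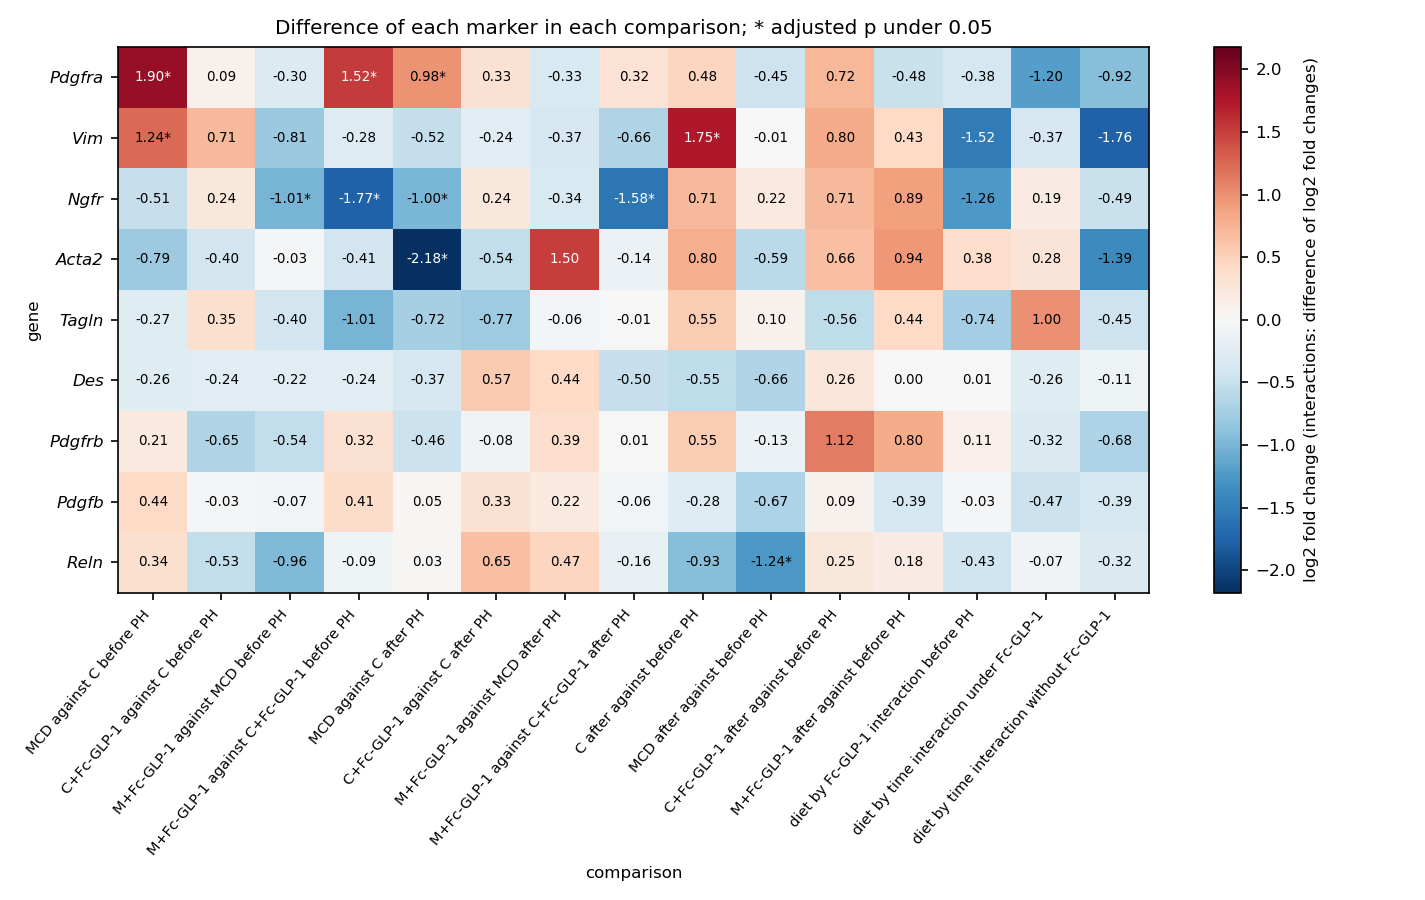
Log2 difference of each tested marker in each of 15 comparisons (red higher and blue lower in the first-named group, and for interactions the difference of the log2 differences), with a star where the adjusted p is under 0.05. There are 11 stars, 3 of them for Pdgfra and 4 for Ngfr, and none stands for Tagln, Des, Pdgfrb or Pdgfb.

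The diet difference itself can be set side by side over its 4 settings. Only Pdgfra was positive in all 4, at 1.90, 1.52, 0.98 and 0.32, and Acta2, Tagln, Des and Ngfr were negative in all 4. For Acta2 the values were -0.79 and -0.41 before PH (without and with Fc-GLP-1) and -2.18 and -0.14 after PH. For Ngfr they were -0.51 and -1.77 before PH, and after PH the level was 2.00-fold and 2.99-fold lower on MCD diet. The change of the Acta2 effect with time in untreated mice, a contrast in which a slide difference does not cancel, was -1.39 (SE 0.76, adjusted p = 0.319). The estimates of Pdgfra and Ngfr thus had opposite signs in every setting, though not each of them passed the test.

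**Figure D4:**
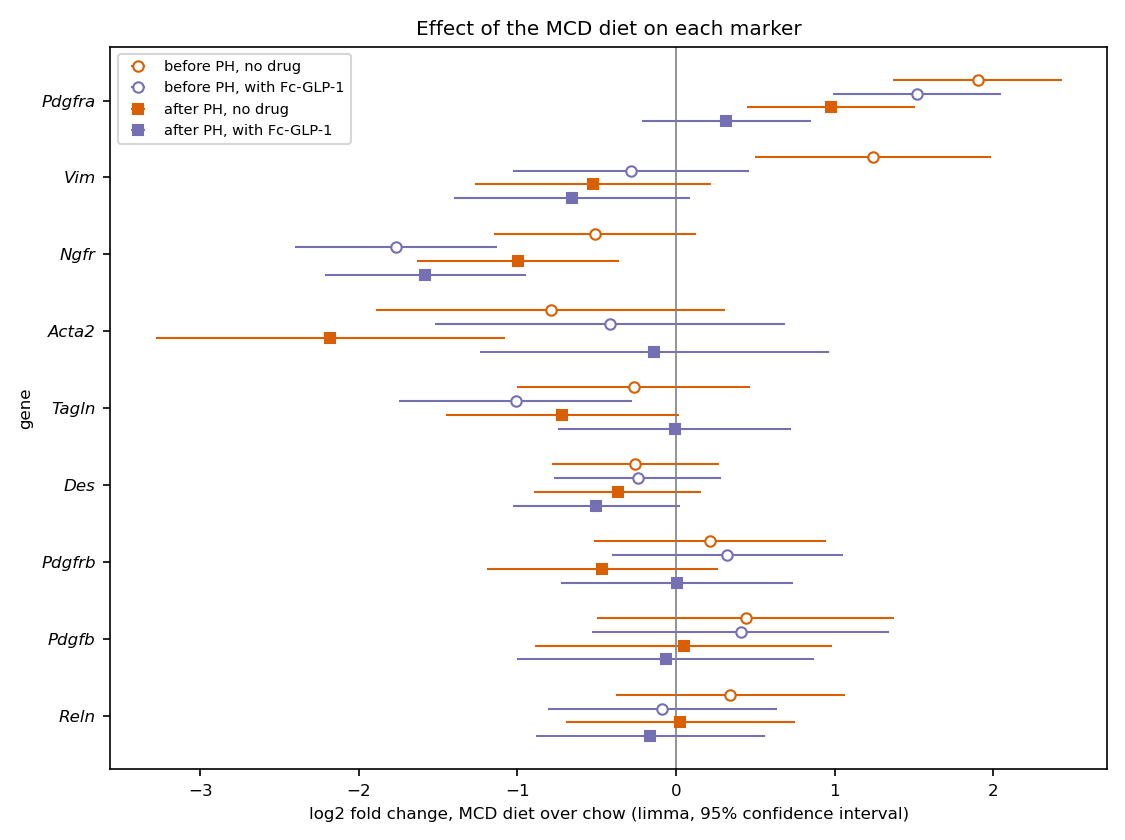
Log2 difference of MCD diet over chow for each tested marker with its 95% confidence interval from limma, in untreated and treated mice before and after PH. The intervals for Pdgfra lie above 0 in 3 of 4 settings, and those for Ngfr lie below 0 in 3 of 4.

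Other markers of stellate cells, 17 of 18 tested, were called more often higher than lower in 3 of the 4 diet contrasts. Before PH, 7 were higher and 1 was lower in MCD than in C mice, against 26.4% of all genes called in either direction, with a median log2 difference of 0.66 against -0.13 over all tested genes. Lrat, the enzyme that esterifies retinol for storage, was 3.67-fold higher (log2 difference 1.88, SE 0.31, adjusted p = 8.03e-05). Between M+Fc-GLP-1 and C+Fc-GLP-1 mice 3 were higher and none lower (against 10.4%), with Abcc9, a subunit of the ATP-sensitive potassium channels of pericytes, 3.88-fold higher (adjusted p = 2.88e-06) and Cygb, the stellate cell globin, 2.03-fold (adjusted p = 0.0453). Tcf21, a mesenchymal transcription factor, was lower (-1.05) with Fc-GLP-1 than without it on MCD diet before PH, whereas Abcc9 was higher (1.12). After PH, 3 were higher and 1 was lower in MCD than in C mice (against 12.1%): Kcnj8, the pore subunit that pairs with Abcc9, rose by 1.45, and Nes, the filament nestin, fell by 1.40 on the log2 scale. In treated mice after PH none was higher on MCD diet and 1 was lower, Nes (-1.31, adjusted p = 0.00900), with a median of -0.14 against -0.01 over all genes. Over the 32 arrays the summed level of the 17 had a correlation of 0.63 with Pdgfra. It was -0.51 with Acta2, -0.61 with Tagln, -0.41 with Ngfr and -0.24 with Des, and between -0.07 and 0.20 with the others. Within groups it was -0.38 with Acta2, -0.41 with Tagln, -0.53 with Des and -0.43 with Reln. With the others it lay between -0.06 and 0.31. The cell source of these markers was not tested.

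Smooth muscle contractile genes, 17 of 20 tested, were called lower or not called on MCD diet, at shares near those of all genes. In MCD against C mice before PH, 4 were lower and none higher (median -0.36), against 26.4% of all genes called, with Tpm1 (-1.46), a tropomyosin, and Mylk (-1.24), the myosin light chain kinase, leading. After PH, 3 were lower and none higher, against 12.1% of all genes called (median -0.52 against -0.03 over all tested genes). In treated mice after PH limma called none, and 2 had an unadjusted p under 0.05 (Myl9 -0.65 and Tpm2 -0.91). In MCD against C mice after PH, groups on different slides, Tpm2, another tropomyosin, was lower (-2.20, SE 0.37, adjusted p = 0.000153). In the same contrast Myh11, the smooth muscle myosin heavy chain, was well above background in no MCD mouse and at least 1.66-fold lower there. For M+Fc-GLP-1 against MCD after PH 2 were higher and none lower: Myh11 (adjusted p = 0.0334) and Cnn1, which encodes calponin (adjusted p = 0.0143), which was well above background in 1 of 4 MCD mice. In treated mice before PH, Myl9 (-1.51) and Tpm2 (-1.35) were lower on MCD diet than on chow and none was higher, against 10.4% of all genes called. The summed level of the 17 had a correlation of 0.62 with Acta2 over 32 arrays, 0.67 within groups, and 0.72 with Tagln. Portal fibroblast markers, which name another source of myofibroblasts, were lower for 2 genes and none higher in MCD than in C mice after PH, of 9 tested (against 12.1% of all genes), and the levels of both, Dpt and Fbln2, differed by -1.77 and -1.28.

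Binding partners of these receptors and ligands, 12 of 13 tested, changed in both directions. In MCD against C mice before PH, 3 were higher and 3 lower, against 26.4% of all genes called. Pdgfa, a ligand of Pdgfra, was higher (1.48, adjusted p = 0.0110) in the comparison in which its receptor was. Vldlr, a receptor for reelin, was 3.29-fold higher (log2 difference 1.72, adjusted p = 0.0112), and Ntf3, the neurotrophin NT-3, was 2.61-fold higher (1.39, adjusted p = 0.0244). Bdnf, another neurotrophin, was lower (-1.52, adjusted p = 0.0203). Vldlr stood higher on MCD diet under Fc-GLP-1 after PH too, 7.42-fold (adjusted p = 0.000166), and Ntf3 was 6.53-fold higher under Fc-GLP-1 before PH (adjusted p = 0.00017). Pdgfc, a ligand of Pdgfra, was 3.45-fold lower on MCD diet than on chow in treated mice before PH (adjusted p = 0.000308), where Pdgfra was higher. Its diet by Fc-GLP-1 interaction was -2.18 (SE 0.45, adjusted p = 0.00658).

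Col1a1, Tgfb1, Mmp2, Fap and Dpp4 are activation genes followed by qPCR in the same experimental groups, and a list chosen in that way is not independent evidence of a direction. Mmp9, of the same list, was too dim to be tested. Col1a1, the main fibrillar collagen, was higher by 1.64 in MCD than in C mice before PH (SE 0.62, adjusted p = 0.0485) and by 2.77 in C mice after than before PH (adjusted p = 0.00365). In the contrast added after seeing the data, the Col1a1 diet effect in untreated mice changed with time by -3.21 (SE 0.87, adjusted p = 0.0417). A slide difference does not cancel in this contrast, because C and MCD lay on different slides after PH. Mmp2, a gelatinase, was higher after than before PH in C+Fc-GLP-1 mice (1.74, adjusted p = 0.0390). It was also the gene most like Pdgfrb over the 32 arrays (r = 0.80). Tgfb1, Fap and Dpp4 were called in none of the 15 comparisons.

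Markers of further cell types were read alongside. Mesothelial markers, 4 of 7 tested, were higher after PH in M+Fc-GLP-1 mice for 2 genes, where 1.71% of all genes were called, with Msln, which encodes mesothelin, at least 26.7-fold higher and well above background on no array before PH, and their summed level ranged from -1.74 to -1.15 before and from 0.02 to 2.67 after PH. Upk3b, Upk1b and Lrrn4, which define mesothelium, were too dim to be tested. Endothelial markers, 11 of 12 tested, had 1 gene higher and 1 lower in MCD against C before PH, where 26.4% of all genes were called. Skeletal muscle markers were tested for 2 of 10 genes, and Acta1, Ckm and the fast myosins were too dim. Their part in the differences of the stellate markers was not tested.

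**Figure D5:**
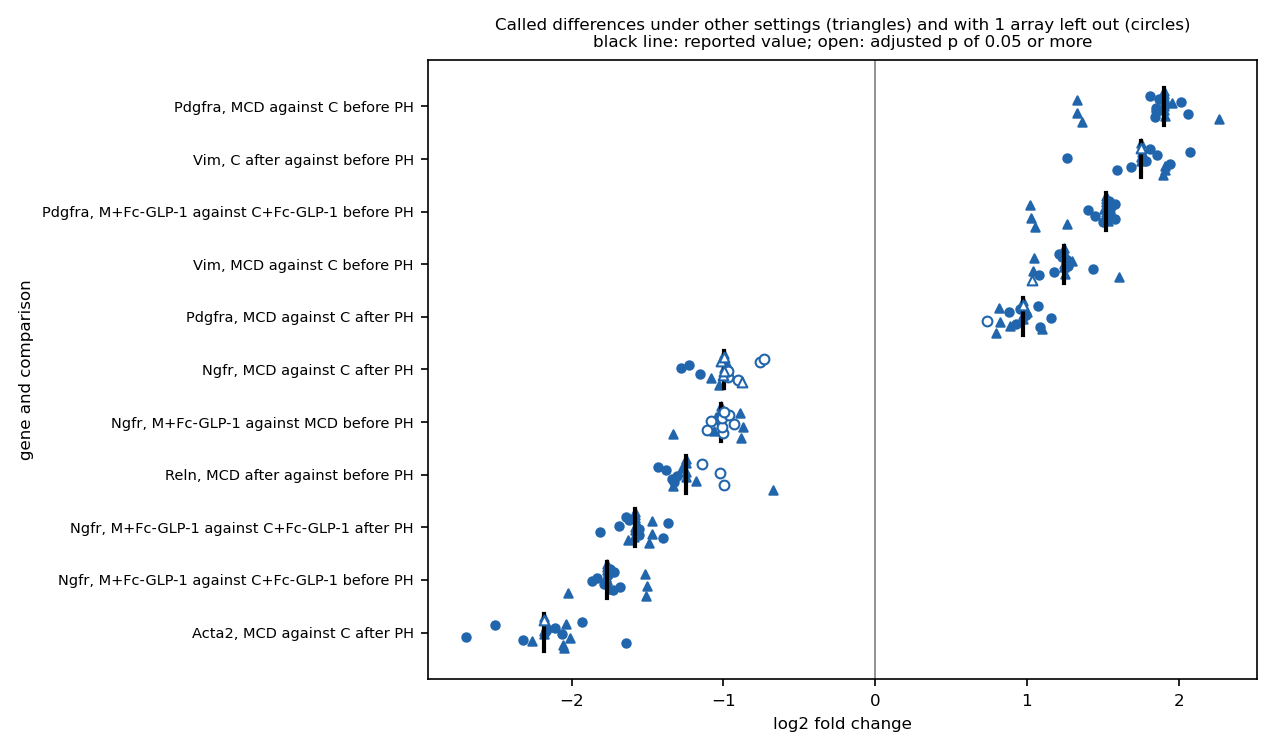
The 11 called differences of the markers (black lines, log2) under other settings (triangles) and with 1 array left out at a time (circles), filled where the adjusted p was under 0.05. None of them changed sign: Pdgfra for MCD against C before PH stayed between 1.33 and 2.27 and was called in all 19 alternatives, whereas Ngfr for MCD against C after PH was not called in 10 of 18. The 19 include slide as a block, which could not differ.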

How the data were processed

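RNA of 32 livers was measured on 1-colour 60-mer arrays. The authors deposited scanner intensity values, in which Feature Extraction had subtracted background and removed trends across each array, and a table of log2 values that they normalized with limma, separately before and after PH. Genome positions are those of RefSeq on GRCm38.p6.

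Here log2 of the processed signal was taken relative to an array's 75th percentile (209.4 to 778.4) over its 59305 spots that are not controls. Outlier spots were left out, and 426 of 55681 probes with all spots flagged on an array were dropped. A probe was kept if a group had all 4 arrays well above background for it. Of the 28937 kept, the brightest stood for each of 21073 genes, and 27656 probes were named through RefSeq accessions. A value against a group without any array above background is a bound against that background. A single fit over the 8 groups was made in limma 3.58.1 (R 4.3.3), with Benjamini-Hochberg adjustment over all genes, for 14 comparisons and 1 added after seeing the data. The markers, the gene lists and the tests were chosen with earlier results of these data known. All 10 markers are reported, the 3 genes with the highest Pearson correlation over arrays are named where they have a symbol, and from other lists at most 2 rises and 2 falls per comparison with groups that do not overlap, chosen after their values were seen where a text sentence goes beyond this. In a test on simulated data for MCD against C before PH (21073 genes, 200 changed), the fit called 21% of genes changed by 1 and 77% of those changed by 2 on the log2 scale, and 2 genes that had no change. The simulated noise was independent between genes, and in the data 26.4% of genes were called in this contrast. These shares therefore do not give the sensitivity or error of the real comparison. Arrays give no read depth, and 4 arrays per group limit the precision. Alternatives were normexp (offset 50) with quantile normalization, other centrings, the authors' values, no dim-probe filter, the mean of probes, only the groups compared, replicate number or slide as a block, and each array left out. In no comparison did the deviations of all 4 same-numbered pairs of arrays correlate over 0.1 (range of pairs -0.19 to 0.52; all 4 were above 0 in 3 of 12 comparisons), so the numbers were not taken as pairs. In the contrasts of after with before PH, where mice could be the same, the pairs ranged from -0.05 to 0.09. Some genes of the lists are counted but not reported here by name. The qPCR, staining and metabolite data of the study were not analysed here.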

Additional observations from a re-analysis of the deposited data

Results flagged for a closer look

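In 8 of 72 sets of 4 arrays (9 markers in 8 groups) the highest or lowest array stood apart from the other 3 by Dixon's criterion, where chance gives about 1 in 20. Pdgfra in C replicate 2 before PH was at -1.16, with the other 3 between -1.82 and -1.79. Ngfr in the same array was at 1.96, with the next at 1.34. That array also had the highest share of probes well above background of the 32 (69.2%). Vim in M+Fc-GLP-1 replicate 4 after PH was at 2.58, with the next at 1.90. Pdgfb was at -0.18 in MCD replicate 2 before PH (the others at 0.20 or above), at -0.073 in C+Fc-GLP-1 replicate 2 before PH (the others at -0.43 or below) and, after PH, at 1.03 in replicate 1 of C+Fc-GLP-1 (the next at -0.57). Reln was at -0.83 in MCD replicate 1 before PH, with the next at -1.75, and at -3.51 in M+Fc-GLP-1 replicate 1 before PH, with the next at -2.28. No interaction passed the threshold for a marker.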

How the results depend on the processing

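Called differences of single markers, and those called under some alternative only, kept direction and side of the threshold in 447 alternative values, while 26 lost the call, 34 gained one and 0 reversed. The 447 include the fits with slide as a block, which could not differ. The count of called markers moved by more than 1.5 times as follows. With normexp and quantile normalization over all arrays it was 1 for MCD against C before PH, 2 for C+Fc-GLP-1 against C before PH and for M+Fc-GLP-1 against MCD before PH, 3 for C after against before PH and 1 for C+Fc-GLP-1 after against before PH. Normexp and quantile normalization within 1 time, chosen after seeing the data, gave 3 for C+Fc-GLP-1 against C, 4 for M+Fc-GLP-1 against MCD and 1 for the diet by Fc-GLP-1 interaction before PH. The authors' normalized values gave 2 for C+Fc-GLP-1 against C and 4 for M+Fc-GLP-1 against MCD before PH. Centring on the median, which moved the median log2 difference of all genes from -0.13 to 0.24 for MCD against C before PH and the share of higher among called genes from 41.4% to 76.9%, gave 2 for M+Fc-GLP-1 against MCD and 2 for the interaction. A fit of only the groups compared gave 2 for M+Fc-GLP-1 against MCD before PH, 2 for the interaction, 0 for MCD against C after PH and 0 for C after against before PH. Leaving out 1 array gave 0 (every array) for M+Fc-GLP-1 against MCD before PH, 0 to 1 for M+Fc-GLP-1 against MCD after PH, MCD after against before PH and the interactions of diet with Fc-GLP-1 before PH and with time without Fc-GLP-1, 1 to 2 for C after against before PH and 2 to 3 for MCD against C after PH, and the reported count elsewhere. The replicate block changed no count, with 2 markers called for MCD against C before PH, and same-numbered arrays were not shown to be pairs. Slide as a block, where it could be fitted, has as many terms as there are groups. It is the same model as the group means, so it could not change a count and is no check. The cause was not tested. Dim signal limits Reln and leaves Gfap without a level.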
